A study of Mus musculus with 7 samples.

Results

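The circadian clock genes Arntl, Clock, Per1, Per2, Per3, Cry1, Cry2, Nr1d1, Nr1d2 and Dbp were followed in mouse myocardial tissue after myocardial infarction (MI). They were chosen by name, as the core loop of the clock with its best known direct output, and are 10 of the 56980 genes measured. RNA was sequenced from 7 male wild-type (WT) mice of the inbred strain C57BL/6J, bought when 8 weeks old and kept for 1 week before surgery. In 3 of them the left coronary artery was ligated (MI mice), and 4 were sham-operated, which means the same surgery without the ligation. Tissue was taken 4 days after MI, and each mouse gave 1 library. Neither the hour of day at which the hearts were taken nor the part of the heart sampled in the sham-operated mice is given in the sources used here, while the study calls the tissue of the MI mice ischemic. The deposited values are FPKM (a gene's fragment count divided by its length and by the library's total), and depths recovered from them ran from 19977713 to 23610870 fragments. Differences between MI and sham-operated mice are given on the scale of log2(FPKM + 1) and were tested with limma, with Benjamini-Hochberg adjustment over the 11431 genes that reached an FPKM of 1 in at least 3 mice. Of the 10 clock genes 9 passed this filter, and Arntl did not.

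The clock of a mammalian cell is a feedback loop of transcription. The proteins ARNTL (also named BMAL1) and CLOCK pair up and switch on genes that carry E-box elements, among them the Per and Cry genes, whose proteins then accumulate and shut the pair down. In a connected loop, NR1D1 and NR1D2 (the REV-ERB receptors) repress Arntl and RORA activates it through ROR elements. DBP, an output of the loop, acts on D-box elements. In a heart that keeps time, transcripts of Arntl peak in the opposite part of the day from those of Dbp and the Per genes, so the level of any of these genes depends on the hour at which tissue is taken, and heart muscle cells carry such a clock of their own.

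To show these elements, promoter sequences of the members were taken from RefSeq (GRCm38.p6), 250 bases before to 50 bases after each annotated start. Of the 10 genes 9 matched, with 13 windows in all, and Per2 did not. Both strands were searched for the E-box CACGTG, the ROR element TAGGTCA or TGGGTCA, the D-box TTATGTAA or TTACGTAA, and the cAMP response element TGACGTCA. The E-box was found in windows of Per1 and Cry1 (7.15% of all 32851 promoter windows hold it). The D-box was found in Per3 at 2 places (1.06% of all windows), and the ROR element in the second window of Arntl (6.45%). The cAMP response element was found in none of the 13 windows (1.79% of all). A match is a description of these letters in these windows and nothing more. The sequences below run 5′ to 3′ on the strand of the gene, and capitals mark the element. They are the 250 bases before a start of Per1 (chr11:69098699-69098948, + strand, E-box at -166), Cry1 (chr10:85185055-85185304, - strand, E-box at -60) and Per3 (chr4:151044666-151044915, - strand, D-boxes at -205 and -158), and 30 bases of Arntl after its second start (chr7:113207530-113207559, + strand, ROR element at 31). Positions count from the start site.
Per1: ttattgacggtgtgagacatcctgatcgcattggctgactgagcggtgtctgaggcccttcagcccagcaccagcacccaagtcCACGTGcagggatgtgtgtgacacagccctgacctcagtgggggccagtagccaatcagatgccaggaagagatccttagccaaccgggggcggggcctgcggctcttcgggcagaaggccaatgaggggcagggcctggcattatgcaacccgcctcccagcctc
Cry1: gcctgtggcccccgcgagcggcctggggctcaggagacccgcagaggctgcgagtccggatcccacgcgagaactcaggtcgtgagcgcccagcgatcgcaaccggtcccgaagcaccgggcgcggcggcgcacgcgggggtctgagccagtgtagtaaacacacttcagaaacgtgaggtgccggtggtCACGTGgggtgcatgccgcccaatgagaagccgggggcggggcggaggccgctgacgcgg
Per3: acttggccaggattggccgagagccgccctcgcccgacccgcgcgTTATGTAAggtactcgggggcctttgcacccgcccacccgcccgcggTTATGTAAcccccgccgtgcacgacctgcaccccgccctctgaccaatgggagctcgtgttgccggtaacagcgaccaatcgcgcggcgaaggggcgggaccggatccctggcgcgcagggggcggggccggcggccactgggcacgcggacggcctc
Arntl: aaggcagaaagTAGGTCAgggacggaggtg

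The tissue was checked against fixed markers. Of 10 cardiomyocyte markers (Myh6, Tnnt2, Ttn and others) none was at 0 in any mouse, and their summed FPKM ran from 15200 to 16450 in the sham-operated mice. It was 9712, 15240 and 10330 in MI replicates 1, 2 and 3. The 8 fibroblast markers summed to 121.8 to 144.7 in the sham-operated mice against 2492, 231.8 and 1923 in MI replicates 1, 2 and 3. The 8 macrophage markers summed to 155.5 to 201.8 against 1052, 188.0 and 904.5. The 6 endothelial markers summed to 123.7 to 143.6 against 150.9, 115.7 and 164.4. MI replicate 2 thus lay inside the sham range for cardiomyocyte and macrophage markers, above it for fibroblast markers and below it for endothelial markers, while MI replicates 1 and 3 stood far outside for the first 3 lists. The markers thus set MI replicate 2 apart from the other mice of its label, its label was kept as given and is in doubt by these markers, whether its infarct was like theirs is not given in the sources used here, and every MI mean, overlap and count includes it unless it is said to be left out. Mitochondrial genes held 26.46 to 27.37% of the fragments in the sham-operated mice and 13.6, 28.19 and 14.93% in MI replicates 1, 2 and 3. Since FPKM is relative to the whole library, all other genes share what the mitochondrial genes leave, and the median difference of all genes tested was 0.21 on the log2 scale. In bulk tissue, fewer cells of a type and less RNA per cell cannot be told apart. With the mitochondrial genes left out, the median of all genes was 0.107 and that of the clock genes 0.016, against 0.135 for the clock genes as deposited. The part of the cell markers in the values of the clock genes was not tested.

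In the sham-operated hearts, the nuclear receptor genes and Dbp were the most abundant clock transcripts and Arntl was the least abundant. In FPKM, which is per length, the order was Nr1d1 (28.5 ± 4.14, SD, n = 4), Nr1d2 (21.0 ± 1.17), Dbp (19.5 ± 1.25), Per1 (11.9 ± 0.281), Per2 (9.59 ± 2.58), Cry2 (6.45 ± 0.601), Per3 (4.62 ± 0.563), Cry1 (3.00 ± 0.387), Clock (1.37 ± 0.155) and Arntl (0.302 ± 0.156). The ranges of neighbours overlapped for Nr1d2 and Dbp, for Per1 and Per2, and for Per2 and Cry2. The other 6 pairs of neighbours kept their order in all 4 sham-operated mice without overlap. The order of levels depends on the gene lengths the authors used, which the FPKM values imply to be 1.01 times (Per2) to 1.98 times (Dbp) the exon lengths in GENCODE M21. With the M21 lengths, Dbp would stand at 38.6 and Nr1d1 at 32.4, so the place of Dbp in this order is uncertain. Ratios of FPKM between mice for a single gene do not depend on its length. Differences on the log2(FPKM + 1) scale do, most for low genes.

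**Figure D1:**
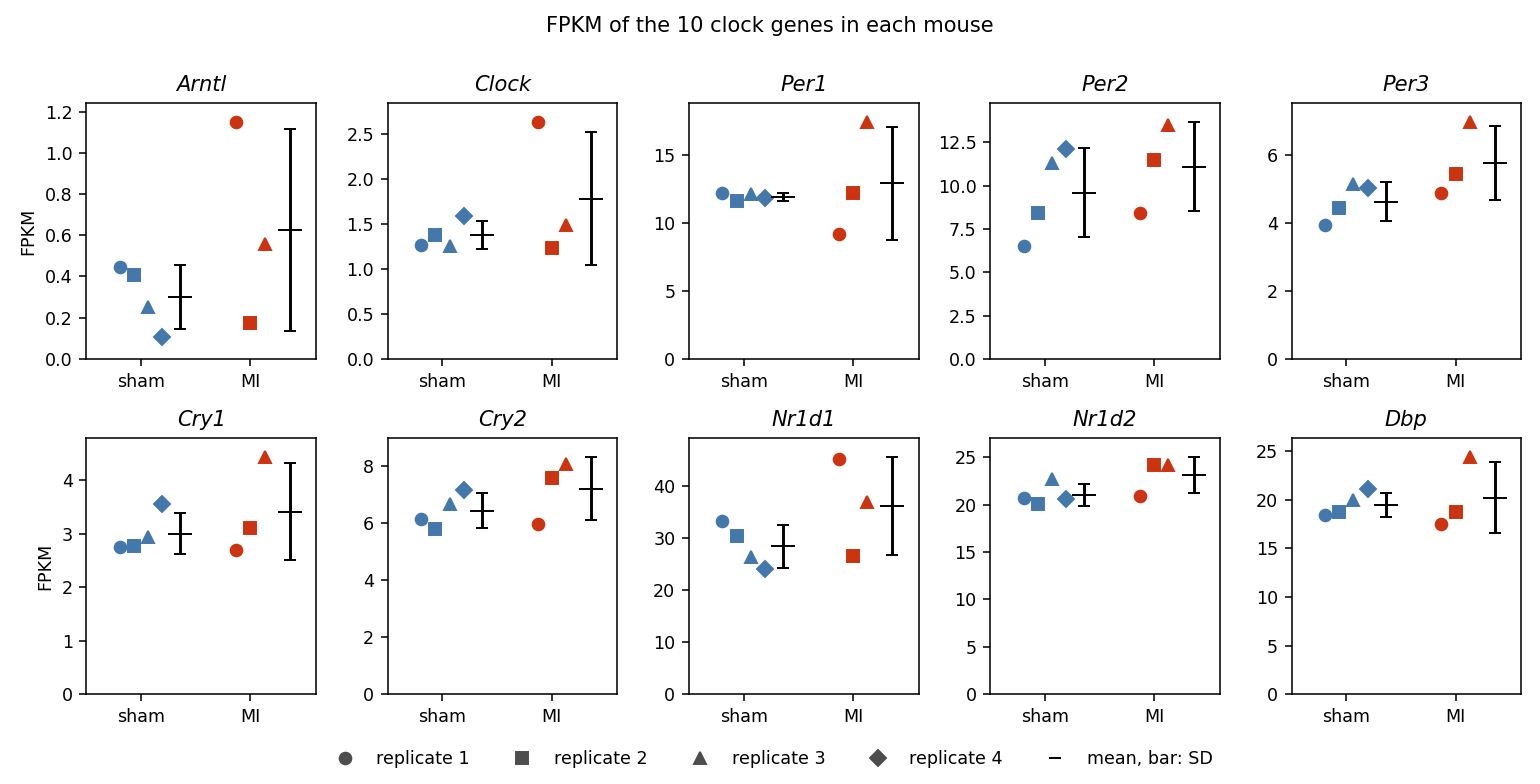
FPKM (y axis, from 0) of each of the 10 clock genes in the 4 sham-operated mice (blue) and the 3 MI mice (red), with a marker shape for each replicate and the mean with its SD as a black bar beside each group. The groups overlap for all 10 genes, the sham-operated mice are close together for Per1 (11.6 to 12.2) and far apart for Arntl (0.106 to 0.446), and MI replicate 1 is the highest heart for Arntl, Clock and Nr1d1.

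The comparison of MI with sham-operated mice asked whether hearts of MI mice held other amounts of the clock transcripts. For all 10 clock genes the ranges of the groups overlapped. The means of the MI mice were 1.03-fold (Dbp) to 1.3-fold (Clock) those of the sham-operated mice for the 9 genes past the filter, and 2.07-fold for Arntl. At an adjusted p under 0.05, limma called 0 of the 9 tested clock genes, against 0.0262% of all genes (3 of 11431). At an unadjusted p under 0.05 it called 0 of 9 as well, where 39.3% of all genes passed (29.5% higher and 9.85% lower in MI). With voom weights on the recovered fragments 0 of 9 passed too, where 4343 of 11430 genes did. Groups that do not overlap were found for 0 of 9 clock genes and for 25.1% of all genes (16.1% higher and 9.0% lower in MI). The median log2 difference of the clock genes was 0.135, below the 0.21 of all genes, and 3 of the 9 lay above it. After scaling by the median log-ratio between mice, the median of all genes was 0.0036 and that of the clock genes -0.081, and again 3 of 9 lay above the median. Without MI replicate 1 this turned round, with a median of 0.243 for the clock genes against 0.139 for all genes and 7 of 9 above it. As TPM, 2 of the 9 (Per3 and Nr1d2) passed at an unadjusted p under 0.05, where 41.1% of all genes did.

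Of the activators, Arntl (ENSMUSG00000055116, chr7:113207465-113314126, mm10, + strand) encodes the partner without which the loop does not run. Its FPKM was 0.446, 0.407, 0.251 and 0.106 in sham replicates 1 to 4 and 1.15, 0.172 and 0.558 in MI replicates 1 to 3. MI replicates 1 and 3 were above all sham-operated mice, and MI replicate 2 lay below 3 of the 4. These values rest on few fragments, 85, 75, 50 and 18 in the sham-operated mice and 212, 33 and 112 in the MI mice. The exact Poisson 95% intervals cover counting error only, and not the noise of library preparation. They were 67.9 to 105 fragments at the highest sham value and 10.7 to 28.4 at the lowest, so these values differed by more than counting error. The difference between MI and sham-operated mice was 0.28 on the log2 scale (SE 0.209, 95% CI -0.21 to 0.78, limma adjusted p = 0.406 in a fit of all genes above 0), and it was 0.061 without MI replicate 1 and 0.50 without MI replicate 2. Clock (ENSMUSG00000029238, chr5:76209868-76304792, - strand), the partner of Arntl, had FPKM of 1.26, 1.38, 1.25 and 1.59 in the sham-operated mice and 2.63, 1.23 and 1.49 in the MI mice. It was high in MI replicate 1 alone, while MI replicate 2 lay just under the sham range and MI replicate 3 inside it. The difference on the log2 scale was 0.20 (SE 0.17, 95% CI -0.20 to 0.60, limma adjusted p = 0.367), and without MI replicate 1 it was -0.0058.

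Among the repressors, MI replicate 1 was the lowest and MI replicate 3 the highest of the MI mice for all 3 Per genes, while the spread among sham-operated mice was narrow for Per1 and wide for Per2. Per1 (ENSMUSG00000020893, chr11:69095217-69109960, + strand), which also responds quickly to hormones and other signals from outside the clock, had FPKM of 12.2, 11.6, 12.1 and 11.8 in the sham-operated mice and 9.18, 12.2 and 17.4 in MI replicates 1, 2 and 3. The MI mice lay below, inside and above a narrow sham range. On the log2 scale the difference was 0.065 (SE 0.187, 95% CI -0.37 to 0.50, limma adjusted p = 0.794). Per2 (ENSMUSG00000055866, chr1:91415982-91459324, - strand) had 6.53, 8.40, 11.3 and 12.1 against 8.42, 11.5 and 13.5. The spread among the sham-operated mice was as wide as that among the MI mice, with an SD of 2.58 in both groups. Its log2 difference was 0.21 (SE 0.233, 95% CI -0.34 to 0.75, limma adjusted p = 0.487). Per3 (ENSMUSG00000028957, chr4:151003652-151044665, - strand) had 3.92, 4.42, 5.14 and 5.01 against 4.88, 5.42 and 6.96. MI replicates 2 and 3 lay above all sham-operated mice. Its log2 difference was 0.26 (SE 0.137, 95% CI -0.064 to 0.58, limma adjusted p = 0.181).

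The cryptochromes, which carry most of the repressing activity of the PER and CRY complex, had MI means of 1.14-fold (Cry1) and 1.12-fold (Cry2) the sham means. Cry1 (ENSMUSG00000020038, chr10:85131700-85185064, - strand) had FPKM of 2.74, 2.76, 2.94 and 3.56 in the sham-operated mice and 2.69, 3.10 and 4.43 in the MI mice. MI replicate 3 was the highest of the 7 and MI replicate 1 the lowest. MI and sham-operated mice differed by 0.12 on the log2 scale (SE 0.152, 95% CI -0.23 to 0.48, limma adjusted p = 0.527). Cry2 (ENSMUSG00000068742, chr2:92403646-92434043, - strand) had 6.17, 5.80, 6.67 and 7.18 against 5.97, 7.61 and 8.07. MI replicates 2 and 3 lay above the sham range and MI replicate 1 inside it. The log2 difference was 0.14 (SE 0.124, 95% CI -0.16 to 0.43, limma adjusted p = 0.406).

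Of the nuclear receptors, Nr1d1 (ENSMUSG00000020889, chr11:98767932-98775333, - strand) had FPKM of 33.3, 30.4, 26.3 and 24.0 in the sham-operated mice and 45.3, 26.5 and 36.9 in the MI mice. MI replicates 1 and 3 stood above all sham-operated mice, while MI replicate 2 stood inside their range. The log2 difference was 0.31 (SE 0.198, 95% CI -0.15 to 0.78, limma adjusted p = 0.24). Without MI replicate 2 it was 0.52 with a limma adjusted p of 0.0145, in a comparison that called 71.7% of all genes (57.0% higher and 14.7% lower in MI), and 1 of the 9 clock genes, Nr1d1, was called there. Without MI replicate 1 the log2 difference of Nr1d1 was 0.14 (limma adjusted p = 0.635). The exons of Nr1d1 share 263 bases with Thra on the opposite strand, which ran from 11.3 to 13.8 FPKM, and whether counting used the strand is not given in the sources used here. Nr1d2 (ENSMUSG00000021775, chr14:18204054-18239127, - strand) had 20.7, 20.1, 22.7 and 20.6 against 20.9, 24.2 and 24.2. As deposited it was the most even of the 10 genes among MI mice, with a log2 SD of 0.117. This evenness depends on the scaling. After median log-ratio scaling its MI mice stood at -0.451, 0.222 and -0.178 from the sham mean on the log2 scale. The log2 difference was 0.13 (SE 0.098, 95% CI -0.10 to 0.36, limma adjusted p = 0.33).

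Dbp (ENSMUSG00000059824, chr7:45705088-45710203, + strand), the output gene, had FPKM of 18.4, 18.7, 20.0 and 21.1 in the sham-operated mice and 17.5, 18.7 and 24.4 in the MI mice. The MI mice lay below, inside and above the sham range, as for Per1. The log2 difference was 0.034 (SE 0.13, 95% CI -0.27 to 0.34, limma adjusted p = 0.844). Its exons share 539 bases with Sphk2 on the opposite strand, which had 1.28 to 3.27 FPKM. In exact two-sided permutation tests of each of the 10 genes over the 35 ways to split 7 mice into 3 and 4, p ran from 0.143 (Per3) to 0.8 (Dbp), and the smallest p this design allows is 0.0286. Under median log-ratio scaling the direction turned for Per1, Per2, Cry1, Cry2, Nr1d2 and Dbp, so no direction is given for the clock genes as a group.

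As deposited, the MI hearts had the larger SD on the log2 scale for 9 of the 10 clock genes. Per2 was the exception (0.318 in MI and 0.369 in sham-operated mice). After median log-ratio scaling the MI values of Nr1d1 (0.208, -0.0658 and -0.00227) lay within the sham range of -0.20 to 0.218. Those of Per2 (-0.546, 0.298 and 0.137) then reached below the sham range of -0.47 to 0.373. SDs after that scaling, and the share of all genes with the larger SD in MI, were not taken. The median SD on the log2 scale was 0.28 over all genes in the MI mice and 0.0849 in the sham-operated mice. MI replicate 1 lay farthest from the sham-operated mice for Arntl, Clock and Nr1d1. Relative to the mean of the sham-operated mice it was higher for Arntl (by 0.73 on the log2 scale), Nr1d1 (0.66) and Clock (0.62), and lower for Per1 (-0.34), Dbp (-0.15), Per2 (-0.13), Cry1 (-0.11) and Cry2 (-0.094), with Per3 at 0.071 and Nr1d2 at -0.0094. MI replicate 3 was higher for all 10 genes, by 0.074 (Clock) to 0.51 (Per1). After median log-ratio scaling, MI replicate 1 was still higher for Arntl (0.53), Clock (0.30) and Nr1d1 (0.21, inside the sham range) and lower for the other 7 genes, from -0.31 for Per3 to -0.76 for Per1. MI replicate 3 then lay between -0.18 and 0.18 for all 10 genes.

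**Figure D2:**
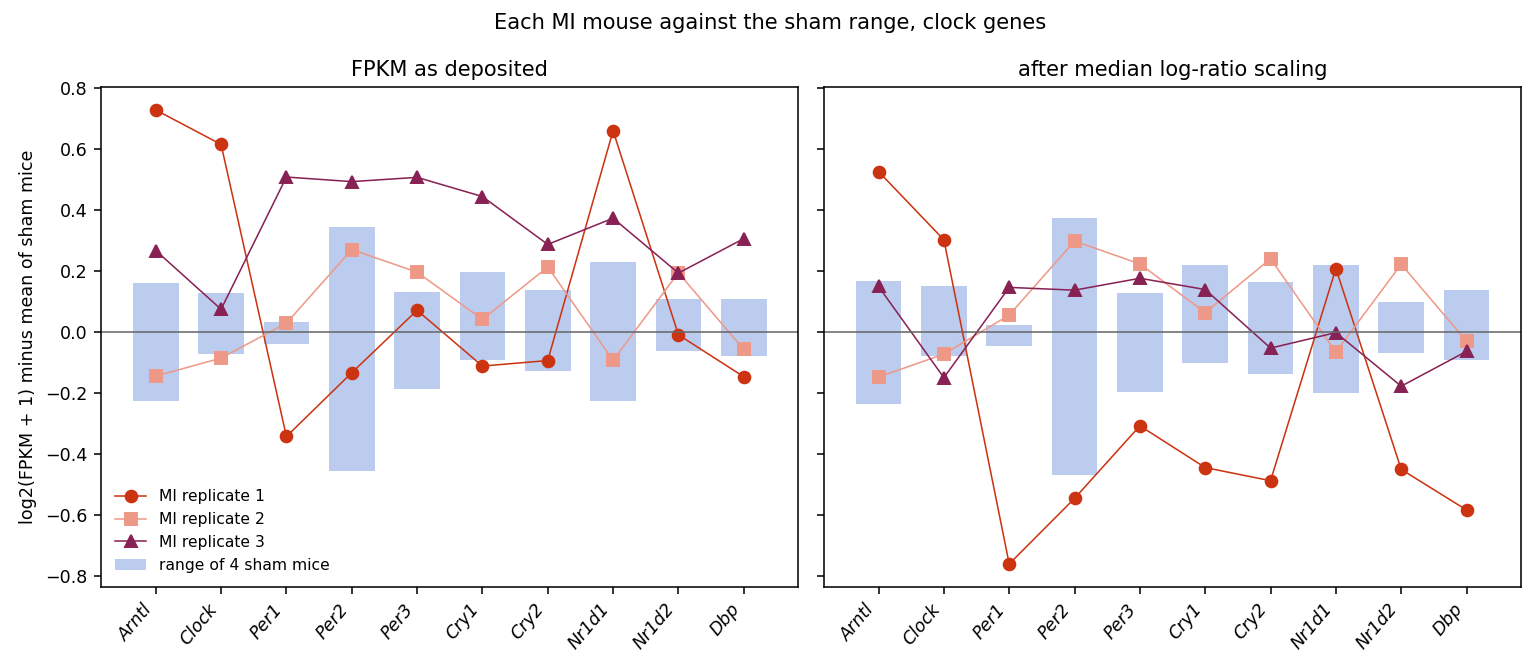
Log2(FPKM + 1) of each clock gene in each MI mouse minus the mean of the sham-operated mice (y axis), with the range of the 4 sham-operated mice as a blue box, for FPKM as deposited (left) and after median log-ratio scaling (right). MI replicate 1 is above the sham box for Arntl and Clock in both panels and for Nr1d1 on the left only (0.21 on the right, inside the box), and lies under the sham box for Per1 (-0.34 as deposited, -0.76 scaled), while MI replicate 3 is above 0 for all 10 genes on the left and within -0.18 to 0.18 on the right.

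FPKM ratios of a pair of clock genes within a mouse do not depend on the scaling between mice. The FPKM of Per2 over that of Arntl was 14.7, 20.7, 45.0 and 114 in sham replicates 1 to 4 and 7.35, 66.9 and 24.3 in MI replicates 1 to 3. The sham-operated mice thus covered a wide range, MI replicates 2 and 3 lay within it, and MI replicate 1 lay below it. The FPKM of Nr1d1 over that of Per2 was 5.10, 3.61, 2.33 and 1.98 against 5.37, 2.31 and 2.73, with MI replicate 1 just above the sham range. The FPKM of Dbp over that of Arntl was 41.3, 45.9, 79.6 and 199 against 15.3, 109 and 43.7, and that of Nr1d1 over Arntl was 74.7, 74.7, 105 and 227 against 39.5, 154 and 66.2. MI replicate 1 lay below the sham range in both ratios, MI replicate 3 lay below it for Nr1d1 over Arntl, and MI replicate 2 lay inside it in both. On the log2(FPKM + 1) scale, which depends on the scaling and on which the added 1 outweighs most values of Arntl, Arntl minus Dbp was -3.75, -3.81, -4.07 and -4.32 against -3.11, -4.07 and -4.03, and Arntl minus Nr1d1 was -4.57, -4.48, -4.45 and -4.50 against -4.43, -4.55 and -4.61.

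The sham-operated hearts themselves differed in some clock genes, most in Arntl and Per2, and this was seen only after the values had been examined. The highest sham value of Arntl was 4.21 times the lowest, a ratio larger than that of 99.2% of all genes tested, a set to which Arntl, with 18 to 85 fragments in these mice, does not belong. For Per2 it was 1.86 times (93.6% of genes lower) and for Nr1d1 1.39 times (79.3%), while for Per1 it was 1.05 times (5.32%). Clock, Per3, Cry1 and Cry2 had 1.24 to 1.31 times (61.2 to 72.0%), Dbp 1.15 times (36.9%) and Nr1d2 1.13 times (31.8%). The median over all genes was 1.19. When the sham-operated hearts were put in the order of their Arntl values, Nr1d1 had the same order, and Per2, Cry1 and Dbp had the reverse order. Counting error leaves neighbours in this order unresolved, since the exact Poisson 95% intervals of Arntl overlap between 85 and 75 fragments (67.9 to 105 and 59.0 to 94.0) and between 75 and 50 (37.1 to 65.9). Sham replicates 1 and 2 are unresolved in the same way for Cry1 (223 to 286 and 216 to 279 fragments) and Dbp (2350 to 2540 and 2300 to 2500). Nr1d1, Per2, Cry1 and Dbp are 4 of the 9 tested clock genes, where 12.9% of all genes had either order (8.29% the same and 4.65% the reverse). In the 4 wider lists described after this, 9 of 35 tested genes had either order, 0 of the 7 clock partners among them. Klf15, a rhythmic transcription factor of heart metabolism, had 7.04, 10.7, 12.2 and 12.4 FPKM in sham replicates 1 to 4, and Nampt, Wee1, Usp2, Fkbp5 and Zbtb16 were in reverse order too. Zbtb16, which glucocorticoids induce, ran from 6.87 to 31.6 FPKM, a 4.60-fold range. Gsk3b, Sirt1 and Timeless had the same order as Arntl. The summed fibroblast markers had this order as well (144.7, 133.8, 126.7 and 121.8 FPKM), with 4 of the 8 markers in it singly, and their part in the order was not tested. Depth was 22430486, 21689401, 23473543 and 19977713 fragments in sham replicates 1 to 4. It was not in this order but was lowest in sham replicate 4, as Arntl was, and its part was not tested.

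**Figure D3:**
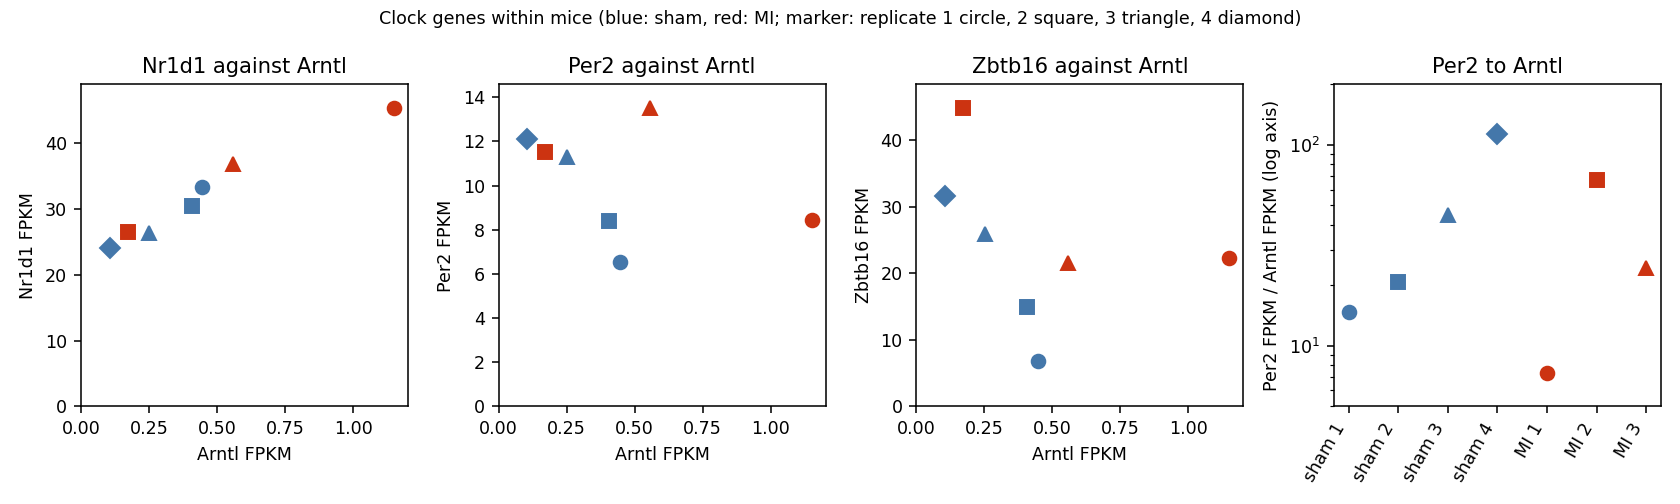
FPKM of Nr1d1, Per2 and Zbtb16 (y axes) against FPKM of Arntl (x axis) in each of the 7 mice, and on the right FPKM of Per2 over FPKM of Arntl in each mouse on a log axis, with sham-operated mice in blue, MI mice in red and a marker shape for each replicate. Among the sham-operated mice Nr1d1 is higher where Arntl is higher, Per2 and Zbtb16 are lower there, and the ratio of Per2 to Arntl runs from 14.7 to 114.

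The wider clock network was described by 4 lists. The 10 clock partners are paralogues of the core genes, factors of the ROR and D-box loops, and other regulators (Bhlhe40, Bhlhe41 and Ciart). Of these 7 were tested, and limma called 0 at an adjusted p under 0.05. At an unadjusted p under 0.05, 2 were higher in MI and 0 lower, where 29.5% and 9.85% of all genes passed. Without MI replicate 2, 4 genes (Rora, Nfil3, Bhlhe40 and Bhlhe41) were called higher by limma's adjusted p and 0 lower, where 57.0% and 14.7% of all genes passed, and the median was 0.413 against 0.326. Rora, which activates Arntl, had 2.49, 2.35, 2.95 and 2.83 FPKM in the sham-operated mice and 3.61, 3.23 and 4.12 in the MI mice, without overlap (log2 difference 0.35, SE 0.108, limma adjusted p = 0.108). Nfil3, a repressor at D-box elements, had 2.97 to 4.45 FPKM in the sham-operated mice against 7.55, 3.77 and 6.04 (log2 difference 0.54). Bhlhe41, which competes for E-boxes, had a log2 difference of 0.35 and unadjusted p of 0.102. The lowest were Hlf (-0.27), Ciart (-0.19) and Tef (0.013, but -0.24 after median log-ratio scaling), with overlapping groups. Npas2, Arntl2 and Rorb were under the filter. The median of the 7 was 0.18 against 0.21 for all genes, and after median log-ratio scaling 0 of them passed at an unadjusted p under 0.05, where 38.6% of all genes did.

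Of 11 genes for kinases, ubiquitin ligase parts and cofactors that act on clock proteins, 10 were tested, and limma called 0 at an adjusted p under 0.05. At an unadjusted p under 0.05, 4 were higher and 1 lower in MI, beside 29.5% and 9.85% of all genes. Without MI replicate 2, 5 were higher and 1 lower at a limma adjusted p under 0.05, beside 57.0% and 14.7% of all genes. Gsk3b, a kinase of several clock proteins, had the highest log2 difference (0.53, SE 0.302) with overlapping groups. Csnk1d and Csnk1e, the casein kinases that mark PER proteins for destruction, had log2 differences of 0.44 and 0.32. Usp2, a deubiquitinase whose gene is a rhythmic clock target, had 17.0, 17.5, 18.2 and 18.6 FPKM in the sham-operated mice and 9.21, 16.4 and 10.5 in the MI mice. All MI mice lay below all sham-operated mice, with MI replicate 2 close to them (log2 difference -0.57, SE 0.18, limma adjusted p = 0.108). The next lowest were Csnk2a1 (0.012) and Btrc (0.063), and both turned below 0 after median log-ratio scaling. Under that scaling 0 genes were higher and 2 lower at an unadjusted p under 0.05, Usp2 and Csnk2a1, where 19.0% of all genes were higher and 19.6% lower.

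Of 10 genes with a daily rhythm or clock dependence in the heart, all were tested, and limma called 0 at an adjusted p under 0.05. At an unadjusted p under 0.05, 1 was higher and 2 were lower in MI (29.5% and 9.85% of all genes), and the median log2 difference was -0.24 against 0.21 for all genes. Without MI replicate 2, 5 genes were called lower by limma's adjusted p and 0 higher (14.7% and 57.0% of all genes), and the median was -0.455 against 0.326. Kcnh2, a potassium channel gene, had 17.1, 16.0, 16.4 and 17.3 FPKM in the sham-operated mice and 7.78, 14.5 and 8.46 in the MI mice, without overlap (log2 difference -0.70, SE 0.194, limma adjusted p = 0.108). Dgat2, of triglyceride synthesis, had 109 to 114 FPKM against 37.6, 110 and 50.6 (log2 difference -0.90). Ucp3, a mitochondrial carrier, had a log2 difference of -0.58. The highest were Pdk4 (0.71), which restrains glucose oxidation, and Wee1 (0.47), a cell cycle kinase, while Pik3r1 stood at -0.14 (0.042 as TPM), and all 3 had overlapping groups. These are mostly genes that cardiomyocytes express, whose markers had a median log2 difference of -0.64, and the part of that in the list was not tested.

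Of 8 genes that the glucocorticoid receptor induces in many tissues, as it does Per1, all were tested, and limma called 0 at an adjusted p under 0.05. At an unadjusted p under 0.05, 3 were higher and 0 lower in MI, where 29.5% and 9.85% of all genes were. Without MI replicate 2, 3 were higher (Fkbp5, Tsc22d3 and Cdkn1a) and 1 lower (Klf9) at a limma adjusted p under 0.05, where 57.0% and 14.7% of all genes were. Fkbp5, a cochaperone of the receptor, had 1.09, 1.79, 2.49 and 3.25 FPKM in the sham-operated mice and 7.28, 4.40 and 5.95 in the MI mice. All MI mice lay above all sham-operated mice, MI replicate 2 included (log2 difference 1.15, SE 0.259, unadjusted p = 0.00264, limma adjusted p = 0.108). Cdkn1a, a cell cycle inhibitor, had 3.17 to 4.04 FPKM against 10.7, 3.71 and 10.1 (log2 difference 0.90), and Zbtb16 had a log2 difference of 0.67 with overlapping groups. The lowest were Klf9 (-0.10), Sgk1 (-0.0061) and Ddit4 (0.046), and these stood at 0.096, 0.18 and 0.24 as TPM and at -0.36, -0.25 and -0.22 after median log-ratio scaling. After median log-ratio scaling, 2 genes, Fkbp5 and Cdkn1a, were higher at an unadjusted p under 0.05 and 0 lower (19.0% and 19.6% of all genes).

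**Figure D4:**
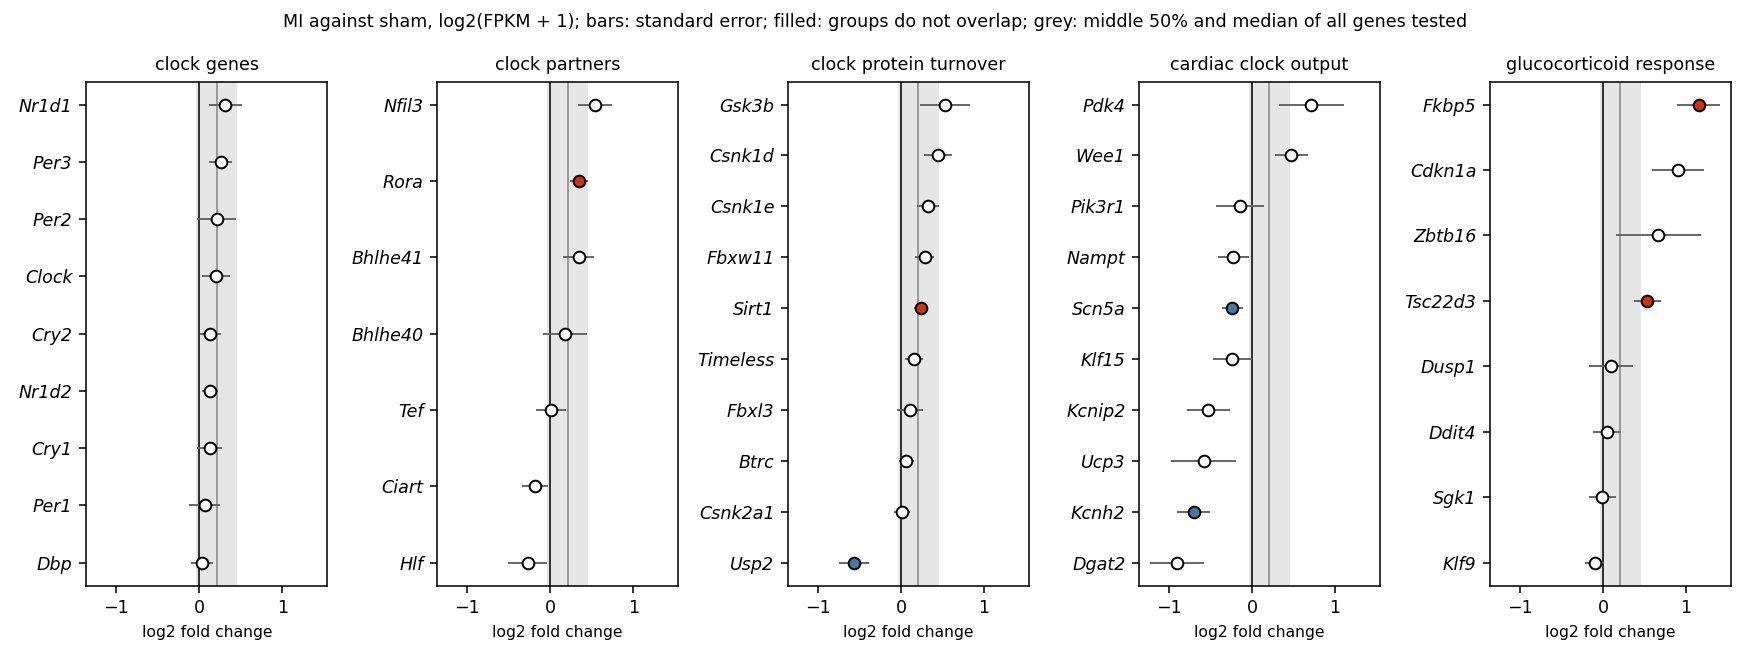
Log2 difference of MI against sham-operated mice (x axis, log2(FPKM + 1), bars: standard error) for the tested genes of the clock genes and the 4 lists, with the median (0.21) and the middle 50% of all genes tested as a grey line and band. Filled points are genes whose groups do not overlap (red above, blue below): none of the clock genes is filled, and Fkbp5 (1.15) and Dgat2 (-0.90) are the extremes of all 5 panels, with Dgat2 not filled.

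To see which genes ran most closely with an activator and with an output of the loop, Pearson's r of log2(FPKM + 1) was taken over the 7 mice, which share group and library composition, and is given as a description. The tested genes most like Arntl were Magef1 (r = 0.989), Nsmce3 (0.988), Ftsj3 (0.987), Nmd3 (0.986) and G3bp1 (0.986). Nr1d1 was the nearest clock gene, at rank 15 with r = 0.979. Clock had r = 0.786 but only rank 4489, so r of this size is common among these genes. Per3 (-0.00234), Nr1d2 (-0.188), Cry1 (-0.213), Per1 (-0.291), Per2 (-0.403) and Cry2 (-0.422) were below 0. Those most like Dbp were Cry1 (0.959), Specc1l (0.936), Tsc22d1 (0.917), Mob1a (0.915) and Aifm2 (0.905), with Per1 at rank 10 (0.876). Arntl and Dbp themselves had r = -0.257.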

How the data were processed

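Myocardial RNA of 4 sham-operated and 3 MI mice was analysed, 1 library per mouse, grouped by the treatment in the labels. The members and the gene lists were chosen with earlier results of these data known. The authors deposited FPKM values for 56980 genes, and no column was left out (0 unused). The submitters' processing notes name CASAVA 1.8, HISAT2, SAMtools 1.3.1, edgeR and the build mm10, with no role or order. The annotation and strand setting are not given in the sources used here. Identifiers were joined to GENCODE M21 symbols (52073, 91.4%). The deposited FPKM are multiples of the value of 1 fragment, and whole fragments were recovered (tolerance 0.05) for 30502 of the 30504 genes above 0, by searching lengths from 25 to 120000 bases.

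The values became log2(FPKM + 1), a scale that understates changes of low genes. Genes that reached an FPKM of 1 in 3 or more mice went into limma 3.58.1 under R 4.3.3, with lmFit and a trended eBayes, no covariates and Benjamini-Hochberg adjustment at 0.05. The paper names no test for the sequencing data. Single genes were also tested by exact permutation over 35 splits. Both the fit and the recovery were tested on simulated data. All members are named. A further gene first placed on the list of clock partners was removed and is not reported here. Of each further list the rule named up to 3 of the highest and 3 of the lowest log2 differences, and of genes like Arntl and Dbp the first 5. The genes named for their order among sham-operated mice were chosen after their values were seen. Alternatives changed the pseudocount (0.1), the filter (none, or on the mean), the scaling (TPM, median log-ratio, quantile normalization, mitochondrial genes left out), and the model (no trend, sample weights, a block for replicate number, voom weights on recovered fragments), or left out each mouse. P-values measure the spread between these mice. Python 3.11.15 with pandas 2.3.3 and NumPy 2.4.6, SciPy 1.17.1 for intervals and matplotlib 3.10.9 for figures served the other steps.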

Additional observations from a re-analysis of the deposited data

How the results depend on the processing

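Of 179 alternative values of the 10 clock genes, 148 kept their direction and their side of the threshold, 21 turned direction and 10 passed an adjusted p under 0.05 where the reported value did not, 9 of them with sample weights and 1 (Nr1d1) without MI replicate 2. Median log-ratio scaling gave Per1 -0.19, Per2 -0.037, Cry1 -0.081, Cry2 -0.10, Nr1d2 -0.14 and Dbp -0.23, with exact permutation p from 0.2 to 0.886. Quantile normalization gave Clock -0.026, Per1 -0.20, Per2 -0.054, Per3 -0.020, Cry1 -0.14, Cry2 -0.14, Nr1d2 -0.095 and Dbp -0.19. Leaving out the mitochondrial genes gave Per1 -0.069, Nr1d2 -0.011 and Dbp -0.10. With each mouse left out in turn, the log2 difference of Clock ran from -0.0058 (without MI replicate 1) to 0.34, and, with the lowest value without MI replicate 3, that of Per1 from -0.16 to 0.27, that of Cry1 from -0.036 to 0.24 and that of Dbp from -0.10 to 0.12. Those of Arntl (0.061 to 0.50), Per2 (0.058 to 0.38), Per3 (0.13 to 0.35), Cry2 (0.059 to 0.25), Nr1d1 (0.14 to 0.52) and Nr1d2 (0.092 to 0.19) stayed above 0. Arntl has no value with the filter on the mean, which it did not pass.

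The 3 genes called of all tested became 6 with a pseudocount of 0.1, 21 without a filter, 0 when genes were filtered by their mean (4740 then had an unadjusted p under 0.05), 15 with median log-ratio scaling, 15 with quantile normalization, 11 without the mitochondrial genes and 9952 with sample weights, and 0 to 8195 with a mouse left out, the 8195 without MI replicate 2. Of genes at an unadjusted p under 0.05, 75.0% were higher in MI as deposited, 88.1% as TPM, 49.2% with median log-ratio scaling, 44.2% with quantile normalization and 63.4% without the mitochondrial genes. Of the 9 tested clock genes, 8 were called with sample weights, at adjusted and at unadjusted p, and 0 to 1 with a mouse left out. As TPM, 2 (Per3 and Nr1d2) passed at an unadjusted p under 0.05, beside 41.1% over all genes. With a mouse left out 0 to 1 did, where 1487 to 8492 of all 11431 genes did. These were Per3 without MI replicate 1 (1612 of all genes) and Nr1d1 without MI replicate 2 (8492 of all genes). The clock genes above the median of all genes were 3 of 9 as reported. More lay above it without MI replicate 1 (7 of 9), with sample weights (7 of 9) and without a filter (9 of 10). With a replicate block, and without sham replicate 4, it was 4 of 9. The sample weights rested on MI replicate 3 (weight 437, against 0.0906 and 0.0217 in MI replicates 1 and 2), so those calls compare little more than that mouse with the sham-operated mice.

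Deviations of same-numbered mice from their group means had r of 0.0739, -0.0163 and -0.0802 over genes. The r of the other pairs ran from -0.0908 to 0.0814. Since the deviations were taken from means of few mice, these values cannot decide whether same-numbered mice shared a batch. A replicate block called 0 of all genes (2332 at an unadjusted p under 0.05) and 0 clock genes, with sham replicate 4 adding nothing as the only mouse of its number. Depth limits Arntl most, with 18 to 212 fragments per mouse, while the other 9 clock genes had 241 to 3919.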
